A study of Mus musculus with 20 samples.

Results

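The genes described here are 30 markers of liver endothelium, of which 12 mark the lining of the sinusoids and 18 mark vascular endothelium in general. They were listed by symbol, with earlier results of these data known, and were measured by the probe sets that the array annotation assigns to these symbols. Of the 30 genes, 28 were measured among 19505 genes on the array, each by 1 probe set, and signals of Egfl7 and Nrp1 are not analysed here. Of the measured markers 27 passed the filter on dim genes and were tested among 11703 genes, all 12 sinusoidal and 15 general vascular. Sox18, a transcription factor of vessel development, was left out as dim.

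RNA came from whole liver of 20 male ob/ob mice, an obese strain without working leptin, with 1 array per mouse and 5 mice in each of 4 groups. All 4 groups carry the ob/ob genotype and ended after 2 weeks, and the age of the mice is not stated in the labels. The first group had PM2.5 (fine airborne particles, breathed in an exposure chamber for 6 hours per day) together with metformin in the drinking water, at a dose set by body weight, and is called the combined group. The second had PM2.5 alone, the third had metformin, and the fourth had filtered air. No air is named in the labels of the third group, which is taken here as metformin without PM2.5. The mice are numbered 1 to 5 within each group only to name them, and equal numbers pair no mice.

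The sinusoids are the capillaries of the liver lobule. Their endothelium is perforated by fenestrae and lies between the blood and the hepatocytes. It takes up waste macromolecules, modified proteins and immune complexes through scavenger, lectin and Fc receptors, it is a main source of coagulation factor VIII, and it sends BMP ligands to hepatocytes, which respond with the iron hormone hepcidin. General vascular markers serve functions that endothelium shares across organs: junctions, VEGF and angiopoietin signaling, and transcription factors of endothelial identity. In RNA from whole liver, fewer cells of a type and less RNA per cell cannot be told apart.

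The label was checked against the array background, since a signal is a log2 value whose level cannot be compared between genes. The probe sets that the array annotation lists as negative controls had a mean median of 4.49 and a mean 95th percentile of 8.36. Of the 12 sinusoidal markers 7 had a mean above that percentile (Clec4g, Fcgr2b, Oit3, Lyve1, Dnase1l3, Ehd3 and F8), and Stab1 and Bmp2 lay within 1 log2 unit of the negative-control median. Of the 16 measured general vascular markers 5 lay above the percentile (Pecam1, Kdr, Cdh5, Eng and Ptprb), and Vwf, Robo4, Sox18 and Ramp2 lay near the median or below it. Averaged over all arrays, the defining sinusoidal markers Clec4g and Lyve1 and the general markers Pecam1, Kdr and Cdh5 were thus above background. Stab2 lay between the negative-control median and the percentile. Single mice differed from this average. Pecam1 was below the 95th percentile of the same array's negative controls in combined mice 1, 2 and 4. The Pecam1 signals there were 8.37, 7.70 and 7.87, against percentiles of 8.46, 8.98 and 8.79. Pecam1 was also below it in metformin mice 1 to 4 and filtered-air mouse 4. Lyve1 was below it in combined mice 2 and 4 (8.12 and 8.23). Ehd3 was below it in combined mice 1, 2 and 4 (8.13, 7.47 and 7.32). All 7 hepatocyte markers were above the percentile, as liver RNA comes mostly from hepatocytes.

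The combined group was less uniform than the others before any comparison. Its array medians of the negative controls ran from 4.44 to 4.79, with the highest values in mice 2 and 4 (4.79 and 4.69), against 4.34 to 4.52 in PM2.5 mice, 4.45 to 4.54 in metformin mice and 4.36 to 4.43 in filtered-air mice. Within the combined group, mouse 5 had the highest signal in 8 of the 12 sinusoidal markers and mouse 2 the lowest in 8 of them. Mouse 5 often lay near the other groups, so the values are shown mouse by mouse. In the fit, 1 residual variance per gene serves all 4 groups, so standard errors can be too small where the combined group varies more than the rest.

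**Figure D1:**
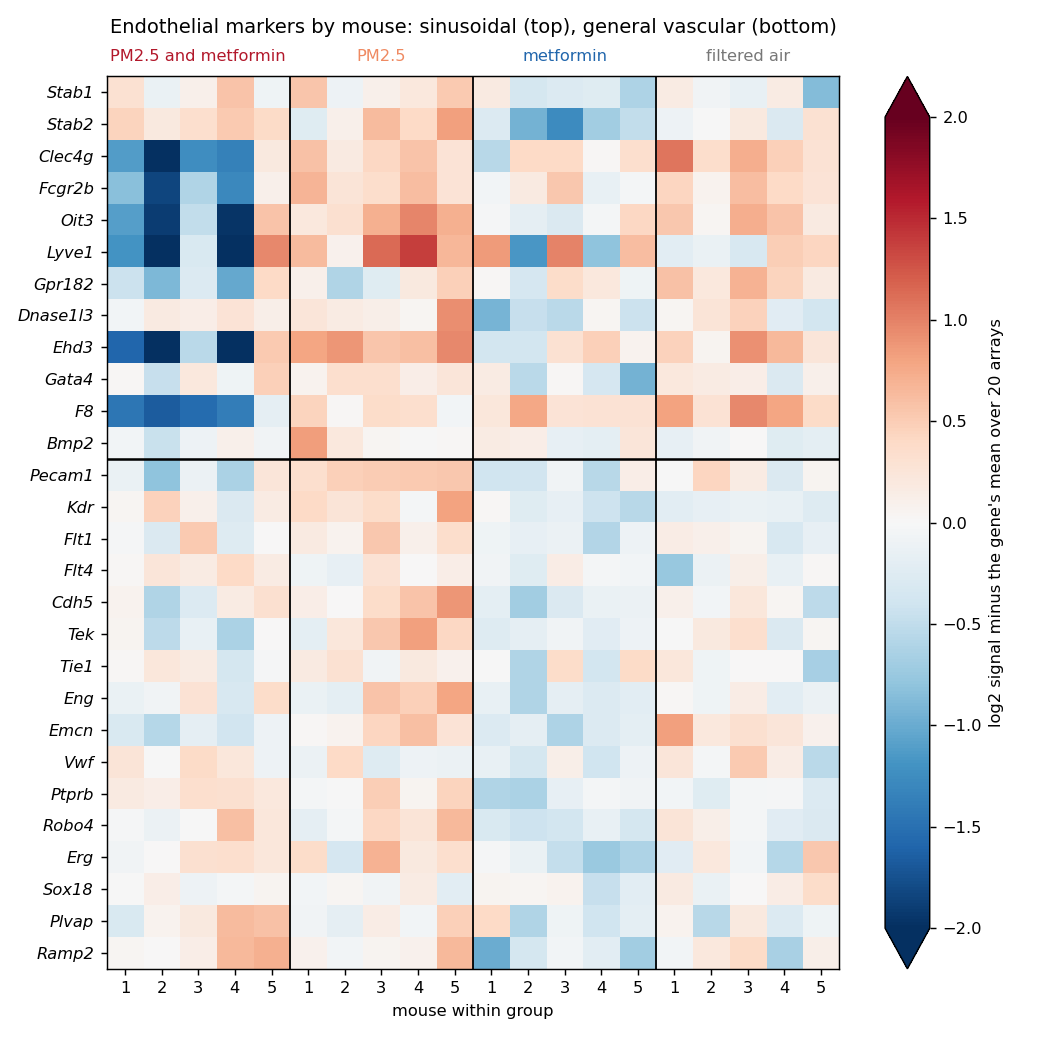
Log2 signal of the 28 measured markers in every mouse (columns, grouped by treatment, with mice numbered within groups) minus the gene's mean over the 20 arrays, with sinusoidal markers above the line and general vascular markers below it. Colours stop at 2 log2 units in either direction. The darkest blue cells lie in mice 1 to 4 of the combined group, in the rows of Clec4g, Fcgr2b, Oit3, Lyve1, Ehd3 and F8, while mouse 5 of that group is pale or red in most of these rows.

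In the combined group against filtered air, which asks what particles and drug together did to the endothelial genes, 6 of 12 sinusoidal markers fell, 0 rose and 6 did not pass the test. Rising and falling are written only of genes with an adjusted p under 0.05 in limma (Benjamini-Hochberg over the 11703 tested genes). Among all tested genes 16.4% fell and 18.9% rose in this comparison, 35.4% in all. The median log2 difference of the sinusoidal markers was -0.92, against 0.01 over all tested genes and 0.11 over the 15 general vascular markers, of which 1 fell. Of the 12 sinusoidal markers 4 lay above 0. All 5 combined mice lay below all 5 filtered-air mice for 3 of the 27 markers (Clec4g, F8 and Emcn), against 9.13% of all tested genes, and above them for 1 (Ptprb), against 11.9%. The sinusoidal median was -0.25 with the negative-control median as a covariate and -0.38 without combined mice 2 and 4. Every combined mouse had a negative-control median above every filtered-air mouse, so this covariate cannot be fully separated from the group. The genes that fell were 3 uptake receptors or surface proteins (Clec4g, Fcgr2b and Gpr182), the secreted protein gene Oit3, the endocytic gene Ehd3 and the clotting factor gene F8.

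F8 encodes coagulation factor VIII, the cofactor that is missing in hemophilia A. Its log2 signal was 11.25, 11.03, 11.15, 11.30 and 12.51 in mice 1 to 5 of the combined group, against 13.49, 12.98, 13.65, 13.47 and 13.08 in filtered-air mice. Every combined mouse lay below every filtered-air mouse, and mouse 5 stood between the other combined mice and the filtered-air mice. F8 fell by 1.88 ± 0.22 on the log2 scale (standard error; adjusted p = 9.08e-06, limma, n = 5 mice per group), with a 95% interval of -2.34 to -1.43, which is 3.69-fold lower. Ehd3, an ATPase that shapes membranes in endocytic recycling, had signals of 8.13, 7.47, 9.18, 7.32 and 10.24 in the combined group, against 10.17, 9.77, 10.63, 10.35 and 9.95 in filtered-air mice. Mice 1 to 4 were below all filtered-air mice and mouse 5 was among them. In combined mice 1, 2 and 4 the Ehd3 signal was below the same array's negative-control 95th percentile, so the size of its fall is uncertain. Ehd3 fell by 1.70 ± 0.38 (adjusted p = 0.00151, limma), or 3.26-fold lower.

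Among the receptors, Clec4g, a C-type lectin of the sinusoidal surface, had signals of 11.05, 10.17, 10.93, 10.82 and 12.37 in the combined group, against 13.25, 12.53, 12.90, 12.66 and 12.46 in filtered-air mice. The groups did not overlap, although mouse 5 was just below the lowest filtered-air mouse. Clec4g fell by 1.69 ± 0.28 (adjusted p = 0.000145, limma), or 3.23-fold lower. Fcgr2b, the inhibitory Fc receptor that takes up small immune complexes in the sinusoids and that macrophages also express, had signals of 12.65, 11.66, 12.89, 12.21 and 13.60 in the combined group, against 13.93, 13.57, 14.12, 13.90 and 13.76 in filtered-air mice. Only combined mouse 5 reached the filtered-air range. Fcgr2b fell by 1.25 ± 0.24 (adjusted p = 0.000522, limma). Gpr182, an atypical chemokine receptor, had 7.77, 7.29, 7.92, 7.17 and 8.59 in the combined group, against 8.77, 8.41, 8.89, 8.63 and 8.37 in filtered-air mice, and fell by 0.87 ± 0.23 (adjusted p = 0.00608, limma). Combined mouse 5 lay inside the filtered-air range, and the signals straddle the negative-control 95th percentile.

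Oit3, which encodes a secreted protein with a zona pellucida domain, had signals of 10.19, 9.40, 10.80, 9.34 and 11.86 in the combined group, against 11.83, 11.34, 12.02, 11.87 and 11.48 in filtered-air mice. Mice 2 and 4 were lowest, and mouse 5 lay in the filtered-air range. Oit3 fell by 1.39 ± 0.33 (adjusted p = 0.00262, limma). Lyve1, a hyaluronan receptor that lymphatic endothelium also carries, had 9.04, 8.12, 9.94, 8.23 and 11.19 in the combined group, against 10.02, 10.10, 9.92, 10.72 and 10.67 in filtered-air mice. Here mice 1, 2 and 4 were below every filtered-air mouse, and mouse 5 was above all of them. The Lyve1 difference was -0.98 ± 0.48 (adjusted p = 0.121, limma), which did not pass, and without mouse 5 of the combined group it was -1.45 and passed.

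The other sinusoidal markers did not share this pattern. Stab2, a scavenger receptor that clears hyaluronan, had signals of 8.59, 8.34, 8.48, 8.68 and 8.53 in the combined group, against 8.04, 8.13, 8.34, 7.85 and 8.46 in filtered-air mice, a difference of 0.36 ± 0.19 with an interval of -0.04 to 0.76. Mouse 5 was not set apart from the other combined mice in this gene. The related receptor gene Stab1 was at 0.31, the secreted nuclease gene Dnase1l3 at 0.10, the transcription factor gene Gata4, which maintains sinusoidal identity in mice, at -0.03, and the ligand gene Bmp2 at 0.02. Their 95% intervals were -0.11 to 0.72 for Stab1, -0.29 to 0.49 for Dnase1l3, -0.42 to 0.36 for Gata4 and -0.30 to 0.34 for Bmp2. Stab1 and Bmp2 were close to background, so a fall in them could be missed.

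The promoters of 4 markers that fell in the combined group and of Stab2, which did not, are shown so that they can be read side by side. Each sequence is the 250 bases before the RefSeq transcription start (build GRCm38.p6), written 5′ to 3′ on the strand of the gene, and capitals mark the core of ETS factor motifs, AGGAAG or CGGAAG, on either strand. ETS factors such as Erg are known regulators of endothelial genes. F8 (chrX:75380042-75380291, minus strand) and Ehd3 (chr17:73804591-73804840, plus strand) hold 0 such matches, Clec4g (chr8:3720652-3720901, minus strand) holds 3, of which 2 overlap, Stab2 (chr10:87007943-87008192, minus strand) holds 1 and the general vascular marker Emcn (chr3:137340828-137341077, plus strand) holds 2.
F8: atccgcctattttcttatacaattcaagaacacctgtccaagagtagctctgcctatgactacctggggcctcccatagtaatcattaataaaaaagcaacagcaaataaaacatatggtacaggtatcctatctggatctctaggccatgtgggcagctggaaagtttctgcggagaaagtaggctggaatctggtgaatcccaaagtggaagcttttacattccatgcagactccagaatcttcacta
Ehd3: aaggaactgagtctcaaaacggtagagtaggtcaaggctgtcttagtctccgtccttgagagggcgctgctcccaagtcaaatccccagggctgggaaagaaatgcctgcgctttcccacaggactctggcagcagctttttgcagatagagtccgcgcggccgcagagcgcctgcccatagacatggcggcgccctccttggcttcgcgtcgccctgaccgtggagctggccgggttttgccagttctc
Clec4g: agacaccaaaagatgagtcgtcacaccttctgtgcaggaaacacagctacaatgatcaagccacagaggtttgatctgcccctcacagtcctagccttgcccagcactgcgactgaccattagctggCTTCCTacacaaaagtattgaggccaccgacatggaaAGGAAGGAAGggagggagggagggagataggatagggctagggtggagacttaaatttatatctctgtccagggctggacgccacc
Stab2: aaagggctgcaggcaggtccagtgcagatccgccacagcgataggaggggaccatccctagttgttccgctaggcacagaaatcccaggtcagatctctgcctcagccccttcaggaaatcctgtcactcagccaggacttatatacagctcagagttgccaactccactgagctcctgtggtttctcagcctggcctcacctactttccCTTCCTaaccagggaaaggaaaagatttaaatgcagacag
Emcn: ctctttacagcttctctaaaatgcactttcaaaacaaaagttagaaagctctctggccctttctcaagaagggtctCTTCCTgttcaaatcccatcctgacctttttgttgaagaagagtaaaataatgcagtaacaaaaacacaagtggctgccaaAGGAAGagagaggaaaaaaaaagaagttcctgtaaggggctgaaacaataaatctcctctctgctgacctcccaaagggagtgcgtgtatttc
Of the 30 markers 17 had a promoter in the RefSeq table (15 measured markers, and Egfl7 and Nrp1), in 21 windows, of which 12 held an ETS match, against 39.2% of 32851 promoter windows of the same length. The letters AGATAA or TGATAA of the GATA motif, on either strand, were in 2 of the 21 windows, against 16.6% of all. These are matches of letters only, and several windows of 1 gene are not separate observations.

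**Figure D2:**
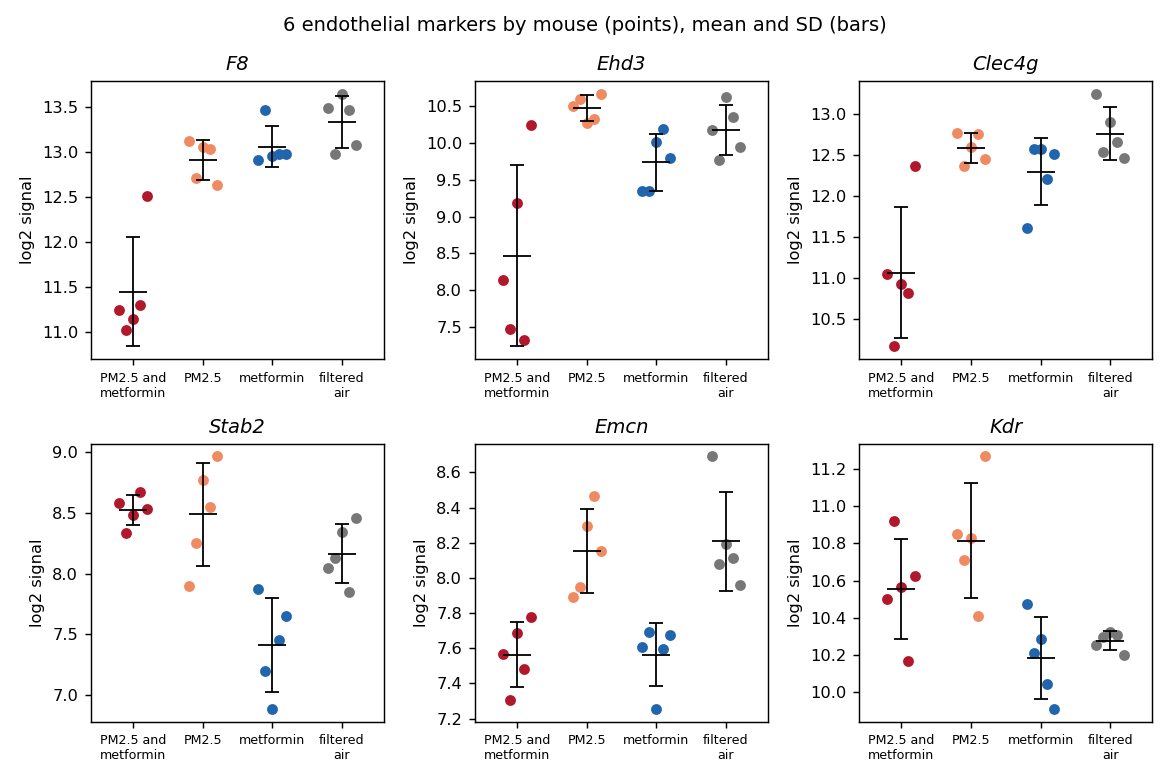
Log2 signal of F8, Ehd3, Clec4g, Stab2, Emcn and Kdr in every mouse (points), with the group mean and SD as bars, for the combined group, PM2.5, metformin and filtered air from left to right. In F8 the 4 lowest combined mice lie between 11.03 and 11.30 and mouse 5 at 12.51, while in Stab2 all 5 combined mice lie between 8.34 and 8.68.

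Of the general vascular markers in the same comparison, Emcn, a sialomucin of capillaries and veins, was the 1 of 15 that fell. Its signals were 7.57, 7.31, 7.69, 7.48 and 7.78 in the combined group, against 8.69, 8.08, 8.19, 8.12 and 7.96 in filtered-air mice. The groups did not overlap, and mouse 5 was close to the other combined mice. Emcn fell by 0.64 ± 0.15 (adjusted p = 0.00244, limma). The other 14 did not pass in limma (2 of them, Flt4 and Ptprb, at an unadjusted p under 0.05, which 44.4% of all tested genes had) and lay between -0.36 (Pecam1) and 0.38 (Flt4). Pecam1, an adhesion molecule at endothelial junctions, had signals of 8.37, 7.70, 8.39, 7.87 and 8.75 in the combined group, against 8.51, 8.93, 8.67, 8.23 and 8.56 in filtered-air mice (adjusted p = 0.121, limma). Flt4, the receptor for VEGF-C, had an adjusted p of 0.0502 in limma. Ptprb, a phosphatase that restrains Tek, was at 0.36 (adjusted p = 0.0563). Of the 12 tested markers of both lists above the negative-control percentile 5 fell, and of the 15 at or below it 2 fell (Gpr182 and Emcn). Cdh5, which encodes VE-cadherin of the junctions, had signals of 10.11, 9.44, 9.77, 10.20 and 10.36 in the combined group, against 10.14, 9.98, 10.27, 10.08 and 9.52 in filtered-air mice, a difference of -0.02 ± 0.19. The ranges of Cdh5 overlapped almost wholly.

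In the same mice the negative-control signal and the macrophage markers differed as well. Of the 10 tested markers of Kupffer cells and macrophages 6 fell and 0 rose, with a median of -1.13. The mean deviation of these 10 genes from their 20-array means was -0.62, -1.95, -1.03, -0.88 and 0.97 in mice 1 to 5 of the combined group, against 0.24, -0.03, 0.27, 0.72 and -0.16 in filtered-air mice. Mouse 2 was lowest and mouse 5 highest in this list, as in 8 of the 12 sinusoidal markers each. With the negative-control median as a covariate, F8 was at -1.46 (adjusted p = 0.00283) and Clec4g had an adjusted p of 0.0376, both still past the threshold in limma, and Fcgr2b, Oit3, Gpr182, Ehd3 and Emcn no longer passed. Without combined mice 2 and 4, F8, Clec4g, Fcgr2b, Ehd3 and Emcn passed, and Oit3 and Gpr182 did not. The part of macrophage RNA in these falls was not tested.

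The combined group against PM2.5 asks what metformin added under particles. Of the 12 sinusoidal markers 6 fell, 0 rose and 6 did not pass, and of the 15 general vascular markers 3 fell. Among all tested genes 11.9% passed, 4.79% lower and 7.07% higher. All 5 combined mice lay below all 5 PM2.5 mice for 5 of the 27 markers (Fcgr2b, Ehd3, F8, Pecam1 and Emcn), against 1.91% of all tested genes. The median difference was -0.88 for sinusoidal markers (-0.50 with the covariate and -0.59 without combined mice 2 and 4), -0.13 for general vascular markers and -0.01 over all tested genes. Clec4g, Fcgr2b, Oit3, Ehd3 and F8, which fell against filtered air, fell here as well, but the 2 comparisons share the combined mice. Lyve1, Pecam1 and Tek passed in this comparison and not against filtered air, a difference between comparisons that was not tested.

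Ehd3 had signals of 10.50, 10.60, 10.26, 10.32 and 10.67 in PM2.5 mice, all above the combined mice listed before. It fell by 2.00 ± 0.38 (adjusted p = 0.00259, limma), or 4.01-fold lower. F8 had 13.13, 12.71, 13.06, 13.03 and 12.63 in PM2.5 mice, again all above the combined group, and fell by 1.47 ± 0.22 (adjusted p = 0.000632, limma). Lyve1 had 10.87, 10.33, 11.36, 11.62 and 10.90 in PM2.5 mice, where combined mouse 5 lay inside the range and the other 4 combined mice below it. Lyve1 fell by 1.71 ± 0.48 (adjusted p = 0.0256, limma), and this call was lost without PM2.5 mouse 3 or 4 or combined mouse 2 or 4.

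The lectin and Fc receptor genes were tightly grouped in PM2.5 mice. Clec4g had 12.77, 12.36, 12.60, 12.75 and 12.45 in PM2.5 mice, and fell by 1.51 ± 0.28 (adjusted p = 0.00226, limma), with combined mouse 5 just inside the PM2.5 range. Fcgr2b had 14.17, 13.75, 13.85, 14.11 and 13.78 in PM2.5 mice, and fell by 1.33 ± 0.24 (adjusted p = 0.00219, limma), with no overlap. Oit3 had 11.50, 11.62, 12.01, 12.26 and 12.00 in PM2.5 mice, and fell by 1.56 ± 0.33 (adjusted p = 0.00523, limma), with combined mouse 5 inside the PM2.5 range. In all 3 genes mouse 5 was the highest of the combined group. Gpr182 had 8.30, 7.60, 7.95, 8.39 and 8.68 in PM2.5 mice and differed by -0.43 ± 0.23 (adjusted p = 0.237), which did not pass in limma and passed without combined mouse 5.

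Among the general vascular markers, Pecam1 had 8.85, 8.99, 9.02, 9.04 and 9.04 in PM2.5 mice, above every combined mouse, and fell by 0.77 ± 0.18 (adjusted p = 0.0091, limma). Tek, the receptor for angiopoietins, had signals of 6.94, 6.36, 6.75, 6.26 and 6.90 in the combined group, against 6.70, 7.11, 7.44, 7.71 and 7.30 in PM2.5 mice. The ranges of Tek overlapped. It fell by 0.61 ± 0.17 (adjusted p = 0.0271, limma), and this call was lost without PM2.5 mouse 3 or 4 or combined mouse 2 or 4. Emcn had 7.89, 7.95, 8.30, 8.47 and 8.15 in PM2.5 mice, above every combined mouse, and fell by 0.59 ± 0.15 (adjusted p = 0.0157, limma), a call lost without PM2.5 mouse 4 or combined mouse 2. Without combined mice 2 and 4 together, 0 of the 15 general vascular markers and 4 sinusoidal markers (Clec4g, Fcgr2b, Ehd3 and F8) passed in limma, and with the negative-control covariate F8 alone of the 27 passed. Of the 10 Kupffer cell and macrophage markers 8 fell here, with a median of -1.42. Their part in these results was not tested.

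The combined group against metformin asks what particles added under the drug. In this comparison the sinusoidal markers went both ways: 4 of 12 fell (Clec4g, Fcgr2b, Ehd3 and F8) and 2 rose (Stab2 and Dnase1l3). Of the 15 general vascular markers 2 rose (Ptprb and Ramp2) and 0 fell. Among all tested genes 16.5% passed, 9.82% higher and 6.72% lower. All 5 combined mice lay above all 5 metformin mice for 4 markers (Stab2, Ptprb, Robo4 and Ramp2), against 5.6% of all tested genes, and below them for 1 (F8), against 3.82%. Medians were -0.72 for sinusoidal markers (-0.34 with the covariate and -0.21 without combined mice 2 and 4), 0.31 for general vascular markers and 0.02 over all tested genes, and 12 of the 15 general vascular markers lay above 0. Of the Kupffer cell and macrophage markers 1 of 10 fell, with a median of -0.55.

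Stab2 had signals of 7.87, 7.20, 6.89, 7.45 and 7.66 in metformin mice, all below the combined mice. It rose by 1.11 ± 0.19 (adjusted p = 0.00114, limma), or 2.16-fold higher. Dnase1l3 had 10.10, 10.33, 10.28, 10.43 and 10.27 in the combined group, against 9.21, 9.70, 9.60, 10.18 and 9.71 in metformin mice. Only metformin mouse 4 lay inside the combined range. Dnase1l3 rose by 0.60 ± 0.19 (adjusted p = 0.034, limma), a call lost without metformin mouse 1, 2, 3 or 5 or combined mouse 2, 3 or 4, and after quantile normalization or median centring.

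F8 had 12.91, 13.46, 12.96, 12.97 and 12.98 in metformin mice, all above the combined group, and fell by 1.61 ± 0.22 (adjusted p = 0.000411, limma). Clec4g had 11.62, 12.57, 12.57, 12.20 and 12.52 in metformin mice, with combined mouse 5 inside that range. It fell by 1.23 ± 0.28 (adjusted p = 0.0059, limma). Fcgr2b had 13.45, 13.68, 14.04, 13.35 and 13.45 in metformin mice, and fell by 0.99 ± 0.24 (adjusted p = 0.00885, limma). Its combined mouse 5 was again inside the metformin range. Ehd3 had 9.34, 9.34, 10.01, 10.19 and 9.79 in metformin mice, and fell by 1.27 ± 0.38 (adjusted p = 0.0251, limma), a call lost without metformin mouse 3, 4 or 5 or combined mouse 2 or 4. Combined mouse 5 was above every metformin mouse in Ehd3 and the other 4 were below them. Oit3 had 11.27, 11.12, 11.00, 11.26 and 11.71 in metformin mice and differed by -0.96 ± 0.33 (adjusted p = 0.0503, limma), which passed without combined mouse 3 or 5. Without combined mouse 5, Lyve1 and Gpr182 passed as well, and 11 of the 27 markers passed in all, against 5 without combined mouse 4. The count over all tested genes moved the same way, with 2414 passing without combined mouse 5 and 1146 without combined mouse 4.

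Ptprb had signals of 10.11, 10.08, 10.27, 10.26 and 10.14 in the combined group, against 9.34, 9.30, 9.78, 9.90 and 9.86 in metformin mice. The groups did not overlap, and the combined mice were close together. Ptprb rose by 0.54 ± 0.14 (adjusted p = 0.0157, limma). Ramp2, which forms the adrenomedullin receptor with Calcrl, had 4.73, 4.69, 4.83, 5.33 and 5.41 in the combined group, against 3.70, 4.33, 4.64, 4.47 and 3.99 in metformin mice, and rose by 0.77 ± 0.21 (adjusted p = 0.0173, limma). All 10 of these Ramp2 signals lay within 1 log2 unit of the negative-control median, and its call was lost without combined mouse 4. Without combined mice 2 and 4 only Stab2 (1.12) and F8 (-1.42) of the 27 markers passed in limma.

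Metformin against filtered air asks what the drug did without particles. Of the 27 markers 2 fell, 1 sinusoidal (Stab2) and 1 general vascular (Emcn), and 0 rose. Among all tested genes 3.2% passed, 1.91% lower and 1.29% higher, and for 3.6% every metformin mouse lay below every filtered-air mouse, as for 1 marker (Emcn). Medians were -0.39 for sinusoidal (-0.081 with the covariate) and -0.23 for general vascular markers, against 0.00 over all tested genes, and 4 of the 27 markers lay above 0, against 50.4% of all tested genes. Of the Kupffer cell and macrophage markers 9 of 10 lay below 0 and 0 passed in limma (1 at an unadjusted p under 0.05).

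With Stab2 at 7.87, 7.20, 6.89, 7.45 and 7.66 in metformin mice and 8.04, 8.13, 8.34, 7.85 and 8.46 in filtered-air mice, only metformin mouse 1 reached the filtered-air range. Stab2 fell by 0.75 ± 0.19 (adjusted p = 0.036, limma), or 1.69-fold lower. This call was lost with the negative-control covariate and without filtered-air mouse 1, 2, 3 or 5 or metformin mouse 2, 3 or 4. Emcn had 7.60, 7.69, 7.25, 7.60 and 7.67 in metformin mice, all below the filtered-air mice. It fell by 0.64 ± 0.15 (adjusted p = 0.0224, limma), a call lost with the negative-control covariate and without filtered-air mouse 1 or metformin mouse 3. The negative-control medians of metformin and filtered-air mice did not overlap, so this covariate cannot be fully separated from the group. The Emcn mean was 7.56 ± 0.18 in the combined group, 8.15 ± 0.24 in PM2.5 mice, 7.56 ± 0.18 in metformin mice and 8.21 ± 0.28 in filtered-air mice (SD, n = 5), so both groups with metformin lay below both groups without it. The differences of Pecam1 (-0.33), Cdh5 (-0.24), Clec4g (-0.46), Lyve1 (0.05) and Kdr (-0.09) did not pass in limma. Pecam1 had 8.11, 8.13, 8.44, 7.96 and 8.64 and Cdh5 had 9.85, 9.34, 9.75, 9.91 and 9.92 in metformin mice. Lyve1 had 11.08, 9.06, 11.23, 9.43 and 10.86 in metformin mice, with mice 2 and 4 well below the other 3, so that group spread widely in this gene.

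**Figure D3:**
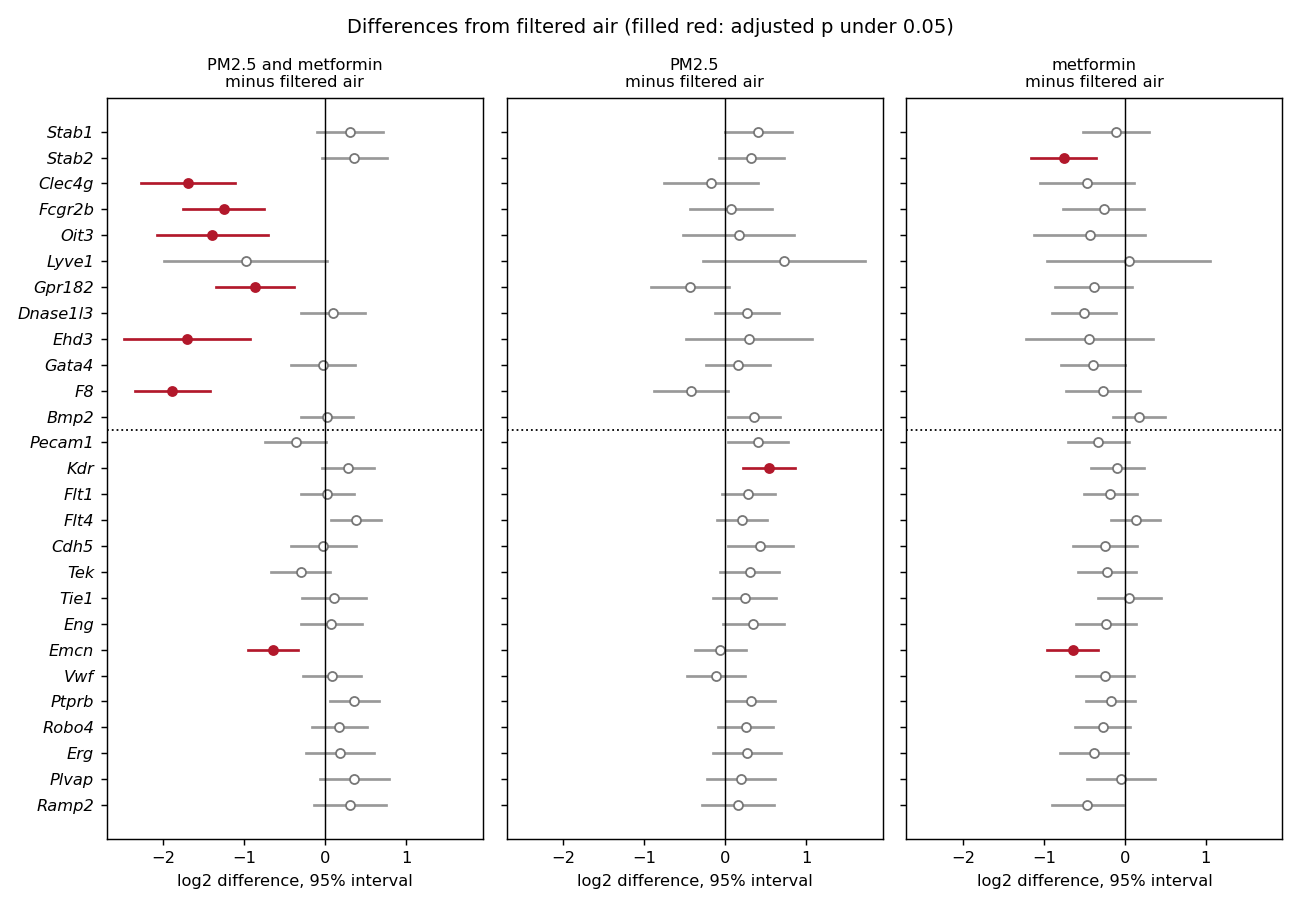
Log2 difference from filtered air (points) with its 95% interval (lines) for the 27 tested markers, in the combined group, PM2.5 and metformin from left to right, with sinusoidal markers above the dotted line. Filled red points had an adjusted p under 0.05: 7 markers in the combined group, Kdr with PM2.5, and Stab2 and Emcn with metformin.

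PM2.5 against filtered air asks what particles did without the drug. Of the 27 markers 1 rose, the general vascular marker Kdr, and 0 fell. Among all tested genes 5.28% passed, 2.72% higher and 2.56% lower, and for 3.58% every PM2.5 mouse lay above every filtered-air mouse, as for 1 marker (Kdr). Medians were 0.22 for sinusoidal and 0.27 for general vascular markers, against 0.02 over all tested genes, and 22 of the 27 markers lay above 0, against 52.6% of all tested genes. Kdr encodes VEGFR2, the main VEGF receptor of endothelium. Its signals were 10.85, 10.71, 10.83, 10.41 and 11.27 in PM2.5 mice, against 10.25, 10.30, 10.32, 10.31 and 10.20 in filtered-air mice. Every PM2.5 mouse lay above every filtered-air mouse, and the filtered-air mice were close together. Kdr rose by 0.54 ± 0.16 (adjusted p = 0.0454, limma), and this call was lost in 14 of the 20 fits that left out 1 mouse, with adjusted p of up to 0.146.

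The other Kdr values were 10.50, 10.92, 10.57, 10.17 and 10.63 in the combined group and 10.48, 10.21, 10.29, 10.04 and 9.91 in metformin mice. Combined mouse 4 was the lowest of its group in this gene and mouse 2 the highest, while mouse 2 was the lowest in 8 of the 12 sinusoidal markers. Among the anchors, Pecam1 was at 0.41 ± 0.18 (adjusted p = 0.181, limma) and Cdh5, with 10.17, 10.05, 10.41, 10.61 and 10.92 in PM2.5 mice, at 0.43 ± 0.19 (adjusted p = 0.182, limma). The sinusoidal markers lay between -0.44 (Gpr182) and 0.73 (Lyve1), and the lowest adjusted p among them was 0.175, for Bmp2 at 0.35. All 10 Kupffer cell and macrophage markers lay above 0 in this comparison, with a median of 0.45, and 0 passed in limma (3 at an unadjusted p under 0.05).

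The interaction asks whether metformin acted differently with particles than without them (the combined group minus PM2.5, less the difference of metformin from filtered air). In limma 0 of the 27 markers passed, while 0.188% of all tested genes did, and 8 of the 12 sinusoidal and 0 of the 15 general vascular markers had an unadjusted p under 0.05, against 13.1% of all tested genes. Of these 8, Stab2 was at 0.79 ± 0.27 (adjusted p = 0.213), and Clec4g (-1.05), Fcgr2b (-1.07), Oit3 (-1.13), Lyve1 (-1.76), Ehd3 (-1.56), F8 (-1.19, adjusted p = 0.103) and Bmp2 (-0.50) were below 0. The result turned on 1 mouse. Without combined mouse 5, 292 genes passed in place of 22, among them 6 sinusoidal markers, all lower: Clec4g, Fcgr2b, Oit3, Lyve1, Ehd3 and F8. Their adjusted p in limma were then 0.00162 (F8) to 0.0397 (Lyve1). Medians over all 5 mice per group were -0.78 for sinusoidal and 0.03 for general vascular markers, against 0.01 over all tested genes.

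The rest of the values of markers that passed somewhere, and the markers that passed nowhere, complete the lists. Across the 5 comparisons 15 of the 27 tested markers passed at least once, 9 sinusoidal and 6 general vascular. The share of all tested genes that passed at least once was not computed. In the single comparison of the combined group with filtered air it was already 35.4%. Without the share over all comparisons, the count cannot be read as a trait of the markers. Stab2 had 7.90, 8.25, 8.78, 8.55 and 8.97 in PM2.5 mice, which overlapped both the combined and the filtered-air mice. Gpr182 had 8.22, 7.86, 8.56, 8.40 and 8.11 in metformin mice, inside the range of the combined mice. Dnase1l3 had 10.40, 10.31, 10.27, 10.19 and 11.08 in PM2.5 mice and 10.19, 10.41, 10.60, 9.91 and 9.79 in filtered-air mice. Mouse 5 of the PM2.5 group stood far above the others in this gene. Tek had 6.63, 6.71, 6.82, 6.66 and 6.78 in metformin mice and 6.89, 7.08, 7.22, 6.60 and 6.93 in filtered-air mice. Ptprb had 9.90, 9.93, 10.43, 9.98 and 10.39 in PM2.5 mice and 9.88, 9.69, 9.90, 9.92 and 9.66 in filtered-air mice, and Ramp2 had 4.77, 4.63, 4.74, 4.77 and 5.34 in PM2.5 mice and 4.63, 4.90, 5.08, 4.04 and 4.81 in filtered-air mice. For Ptprb and Ramp2 the metformin group had the lowest mean of the 4 groups.

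Of the 3 sinusoidal markers that passed in no comparison, Stab1 ranged over 4.54 to 5.25 in the combined group, 4.58 to 5.23 in PM2.5 mice, 4.06 to 4.85 in metformin mice and 3.81 to 4.84 in filtered-air mice. Gata4 ranged over 7.08 to 8.02 in the combined group, 7.62 to 7.88 in PM2.5 mice, 6.59 to 7.71 in metformin mice and 7.26 to 7.74 in filtered-air mice. The groups overlapped for both genes. Bmp2 ranged over 4.55 to 5.10 in the combined group, 4.99 to 5.83 in PM2.5 mice, 4.80 to 5.24 in metformin mice and 4.75 to 5.00 in filtered-air mice, with PM2.5 mouse 1 far above the rest of its group.

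Of the general vascular markers that passed in no comparison, the VEGF receptor gene Flt1 was at 0.03 ± 0.16 in the combined group, 0.29 ± 0.16 with PM2.5 and -0.18 ± 0.16 with metformin, each against filtered air. Flt4 was at 0.38 ± 0.15 in the combined group, 0.21 ± 0.15 with PM2.5 and 0.13 ± 0.15 with metformin. Tie1, an orphan receptor that works with Tek, was at 0.11 ± 0.19 in the combined group, 0.24 ± 0.19 with PM2.5 and 0.06 ± 0.19 with metformin. These 3 receptor genes were below the negative-control 95th percentile in mean signal, so small differences in them are hard to see. Eng, a TGF-beta coreceptor, was above it and was at 0.08 ± 0.18 in the combined group, 0.35 ± 0.18 with PM2.5 and -0.23 ± 0.18 with metformin. Plvap, which encodes the protein of fenestral diaphragms, was at 0.36 ± 0.20 in the combined group, 0.19 ± 0.20 with PM2.5 and -0.05 ± 0.20 with metformin. Erg, an ETS factor of endothelial identity, was at 0.18 ± 0.20 in the combined group, 0.27 ± 0.20 with PM2.5 and -0.38 ± 0.20 with metformin. The 95% intervals of Eng and Erg in the combined group were -0.29 to 0.45 and -0.24 to 0.60. The mean signals of Erg and Plvap (7.19 and 6.80) were also below the negative-control 95th percentile, which limits what their differences show. Vwf, the carrier of factor VIII in blood, was at 0.08 ± 0.17 in the combined group, and Robo4, a guidance receptor that stabilizes vessels, at 0.17 ± 0.16, both near background. Sox18, not tested, ranged over 3.92 to 4.16 in the combined group, 3.83 to 4.20 in PM2.5 mice, 3.58 to 4.10 in metformin mice and 3.90 to 4.41 in filtered-air mice.

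Set side by side within each mouse, the sinusoidal list mean lay below the general vascular list mean in 4 of the 5 combined mice. The mean deviation over the 12 sinusoidal markers was -0.59, -1.11, -0.36, -0.83 and 0.28 in mice 1 to 5 of the combined group, 0.41, 0.16, 0.38, 0.46 and 0.49 in PM2.5 mice, -0.05, -0.24, 0.03, -0.12 and -0.05 in metformin mice and 0.32, 0.10, 0.41, 0.24 and 0.08 in filtered-air mice. The mean deviation over the 15 general vascular markers was -0.02, -0.12, 0.13, 0.03 and 0.20 in the combined group, 0.06, 0.06, 0.34, 0.24 and 0.45 in PM2.5 mice, -0.20, -0.39, -0.14, -0.32 and -0.19 in metformin mice and 0.04, 0.01, 0.15, -0.18 and -0.14 in filtered-air mice. Combined mice 1 to 4 were the 4 lowest of the 20 for sinusoidal markers, while for general vascular markers all 5 combined mice lay above every metformin mouse. The difference of the list means, sinusoidal minus general vascular, was -0.57, -0.99, -0.49, -0.86 and 0.08 in the combined group, 0.04 to 0.35 in PM2.5 mice, 0.14 to 0.20 in metformin mice and 0.09 to 0.42 in filtered-air mice. The lists also differ in brightness, with a median mean signal of 9.93 for sinusoidal and 6.89 for general vascular markers, which limits the comparison. These are descriptions with no test, since the lists were chosen with earlier results known.

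**Figure D4:**
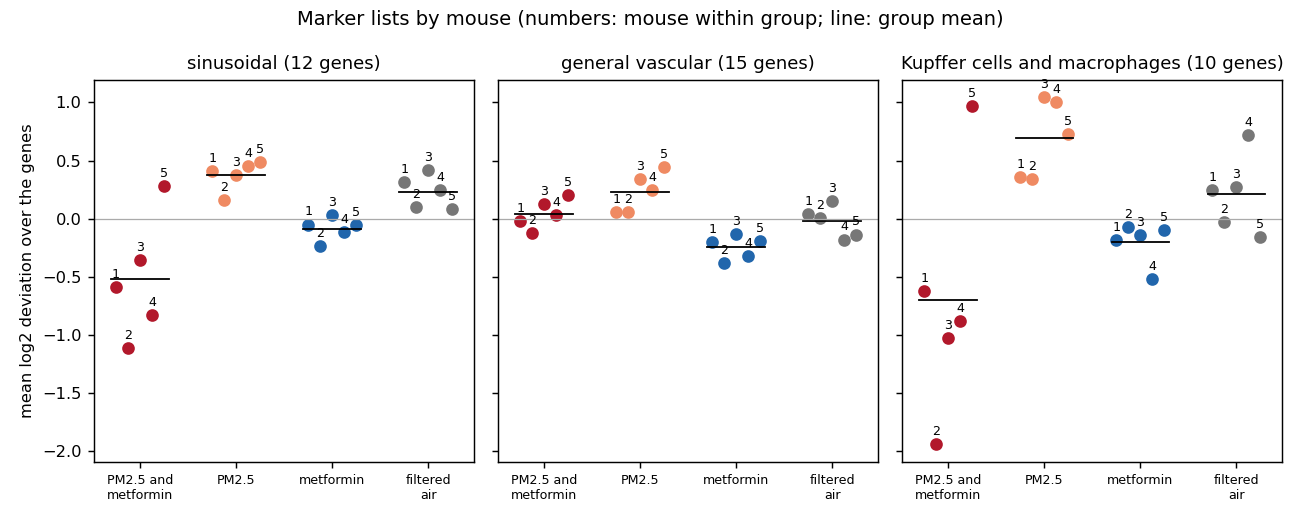
Mean log2 deviation from the 20-array mean over the sinusoidal markers, the general vascular markers and the markers of Kupffer cells and macrophages, in every mouse (points with the mouse number; line, group mean). Combined mice 1 to 4 lie below 0 for sinusoidal and macrophage markers and mouse 5 above 0, while for general vascular markers the combined group lies between -0.12 and 0.20.

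Genes that act with these markers were read from 4 further lists. Of 20 tested endothelial ligands, receptors and secreted factors, 4 fell and 2 rose in the combined group against filtered air, beside 16.4% and 18.9% of all tested genes, with 10 of the 20 above 0. Calcrl, the receptor that Ramp2 partners, had signals of 9.84, 9.78, 9.50, 9.56 and 10.42 in the combined group, against 10.78, 10.63, 11.01, 10.84 and 11.06 in filtered-air mice. The groups did not overlap, and Calcrl fell by 1.05 ± 0.17 (adjusted p = 0.000107, limma). It also fell by 0.62 ± 0.17 against PM2.5 and by 0.54 ± 0.17 against metformin (adjusted p = 0.0196 and 0.0292). Angpt1, a ligand of Tek, fell by 1.09 ± 0.28 against filtered air (adjusted p = 0.00496), and Vegfb, a ligand of Flt1, by 0.61 ± 0.19 (adjusted p = 0.0145). The mean Vegfb signal of 4.60 was close to the negative-control median, so its fall lies near background. Vegfc, a ligand of Flt4, fell by 0.47 ± 0.15 against metformin (adjusted p = 0.0334).

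Of 14 tested endothelial transcription factors, 4 rose and 1 fell in the combined group against filtered air, beside 18.9% and 16.4% of all tested genes, with a median of 0.12. Hhex, which hepatocytes also use, had signals of 8.80, 8.84, 9.97, 8.67 and 9.41 in the combined group, against 7.40, 7.77, 7.49, 7.45 and 8.33 in filtered-air mice, all higher, and rose by 1.45 ± 0.27 (adjusted p = 0.000374, limma). Epas1, a hypoxia-inducible factor, rose by 0.85 ± 0.22 (adjusted p = 0.00432), and Nr2f2, a factor of venous identity, by 0.49 ± 0.15 (adjusted p = 0.017). The ETS family gene Ets2 had 7.24, 7.59, 7.45, 7.61 and 8.24 in PM2.5 mice, against 5.97, 6.64, 6.55, 6.13 and 6.66 in filtered-air mice, all higher. It rose by 1.23 ± 0.34 with PM2.5 (adjusted p = 0.0374, limma), and fell by 1.18 ± 0.34 in the combined group against PM2.5 (adjusted p = 0.0288). The rise with PM2.5 was lost whichever filtered-air mouse was left out.

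Of 26 tested genes of capillary and vein endothelium, 5 fell and 1 rose in the combined group against filtered air, beside 16.4% and 18.9% of all tested genes, with a median of -0.10. Clec14a, a lectin-like protein of endothelium, had signals of 6.86, 6.28, 6.91, 5.82 and 7.74 in the combined group, against 8.56, 8.35, 8.52, 8.50 and 8.08 in filtered-air mice. Every combined mouse was lower, and mouse 5 was the highest of them. The mean Clec14a signal of 7.81 and the signals of all combined mice were below the negative-control 95th percentile of 8.36. Clec14a fell by 1.68 ± 0.26 (adjusted p = 7.18e-05, limma), by 1.54 ± 0.26 against PM2.5 (adjusted p = 0.0012) and by 1.14 ± 0.26 against metformin (adjusted p = 0.00547). Fabp4, a fatty acid binding protein of capillaries and macrophages, fell by 0.98 ± 0.24 against filtered air (adjusted p = 0.00361). Against PM2.5 the adhesion molecule gene Vcam1 fell by 1.93 ± 0.48 (adjusted p = 0.0137) and the water channel gene Aqp1 by 0.78 ± 0.20 (adjusted p = 0.0144), with Vcam1 at 8.38, 6.64, 7.89, 7.05 and 9.90 in the combined group, against 9.72, 9.25, 9.68, 10.54 and 10.30 in PM2.5 mice. In Vcam1, too, mouse 2 was the lowest and mouse 5 the highest of the combined group.

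Of 16 tested genes of BMP signaling and iron sensing, 4 rose and 1 fell in the combined group against filtered air. Among all tested genes 18.9% rose and 16.4% fell, and the list median was 0.34. The list mixes receptor genes such as Bmpr2 and the iron sensor gene Tfr2 with genes that BMP signals induce. Its counts therefore do not measure a response to BMP ligands. The ligand gene Bmp2 was near background, and the ligand gene Bmp6 had a mean signal of 6.63. Tfr2, a sensor of iron-loaded transferrin, had 14.29, 14.89, 14.64, 14.45 and 14.44 in the combined group, against 13.60, 13.34, 13.55, 14.19 and 13.40 in filtered-air mice, all higher, and rose by 0.93 ± 0.18 (adjusted p = 0.000641, limma). The receptor gene Bmpr2 rose by 0.70 ± 0.17 (adjusted p = 0.00268). Hamp, which encodes hepcidin, rose by 0.84 ± 0.23 in the combined group against metformin (adjusted p = 0.0169), as did its near-identical copy Hamp2 by 0.83 ± 0.23 (adjusted p = 0.0183), and the array may not tell the copies apart. With the negative-control covariate, the differences from filtered air of Calcrl, Hhex, Clec14a and Tfr2 still passed in limma, and those of Angpt1, Vegfb, Epas1, Nr2f2, Fabp4 and Bmpr2 did not. In the interaction 0 genes of these 4 lists passed in limma, and without combined mouse 5 Ets2, Vcam1 and Clec14a did.

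In the combined group against filtered air, 2 of 9 stellate cell markers fell and 1 rose, 0 of 3 smooth muscle markers passed (0 at an unadjusted p under 0.05), 1 of 4 lymphatic markers rose, 1 of 3 cholangiocyte markers fell, and 2 of 7 hepatocyte markers rose, beside the 16.4% of all tested genes that fell and the 18.9% that rose. The lymphatic marker that rose was Prox1, a factor that hepatocytes also express, at 1.23 ± 0.18 (adjusted p = 5.32e-05, limma). Its signal of 11.37 to 12.44 in the combined group, against 10.68 to 10.93 in filtered-air mice, lay above the negative-control 95th percentile, while the lymphatic markers Pdpn and Mmrn1 lay near the background. The cholangiocyte marker Krt7 fell by 0.84 ± 0.16 (adjusted p = 0.000351, limma), with a mean signal of 5.92, below the negative-control 95th percentile. Among the macrophage markers, Vsig4 fell by 2.09 ± 0.48 against filtered air and by 2.51 ± 0.48 against PM2.5 (adjusted p = 0.0019 and 0.00271), and the macrophage surface gene Adgre1 by 1.28 ± 0.30 and 1.46 ± 0.30 (adjusted p = 0.00262 and 0.0048). The log2 of the summed linear signal of the macrophage list ran from 11.31 to 14.98 in the combined group, 14.26 to 14.93 in PM2.5 mice, 13.31 to 13.83 in metformin mice and 13.82 to 14.82 in filtered-air mice, and that of the hepatocyte list from 20.76 to 20.94, 20.83 to 20.90, 20.79 to 20.89 and 20.79 to 20.84 in the same order of groups. All measured T and NK cell and B cell markers lay within 1 log2 unit of the negative-control median or below it, as did Pf4, Ppbp and Gp9 of platelets.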

How the data were processed

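RNA from the livers of 20 mice was hybridized to 1 array each. The values are log2 signals that the authors deposited, 1 for each probe set in each mouse, made with Affymetrix Expression Console per the submitters' processing notes (version not given in the sources used here). The settings of that step are not given there either, and the probe-set identifiers belong to another array design than the one the series text names. The table holds 28846 probe sets, of which 6640 are controls, 5222 of them negative controls. Of the 22206 others 19572 name a single gene, 0 name more and 2634 name no gene. They cover 19505 genes, 55 of them by more than 1 probe set, of which the brightest on average was used. Array medians ran from 4.77 to 4.92, so no further normalization was applied.

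Genes whose mean was at or below the 40th percentile of all genes (log2 4.09) were left out, which left 11703. One model of 4 group means was fitted in limma 3.58.1 (R 4.3.3) with moderated variances (eBayes), and p-values were adjusted by Benjamini-Hochberg over all tested genes for each comparison. The limma step was tested on simulated data with equal spread in all groups and changes in PM2.5 mice only. That setting does not cover the wider spread of the combined group. The labels give no batch, pairing or age. The p-values set differences of group means against the spread of mice within groups, moderated over genes, and the number of arrays limits the precision. Every marker that passed in any comparison is named with each mouse's value, and of each further list the 4 genes with the lowest p-values. The markers and lists were chosen with earlier results of these data known. Alternatives were other filters, quantile normalization, median centring, limma's trend and robust options, fits of the compared arrays alone, the negative-control median as a covariate, and fits without combined mice 2 and 4 or without each mouse in turn. Promoter sequences are RefSeq's (build GRCm38.p6). Signals of Egfl7 and Nrp1 are not analysed here, and their promoters are among those searched for motifs.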

Additional observations from a re-analysis of the deposited data

Results flagged for a closer look

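In a group of 5 mice, a mouse was picked out where its gap to the nearest other mouse was over 0.71 of the group's range. This held for 13 of 128 groups of values examined, where chance gives about 1 in 20. In the combined group it held for F8 in mouse 5 (12.51, above the others). In PM2.5 mice it held for Dnase1l3 in mouse 5 (11.08, above), Ramp2 in mouse 5 (5.34, above), Bmp2 in mouse 1 (5.83, above), Pecam1 in mouse 1 (8.85, below) and Vwf in mouse 2 (5.48, above). In metformin mice it held for F8 in mouse 2 (13.46, above), Cdh5 in mouse 2 (9.34, below), Eng in mouse 2 (9.70, below), Emcn in mouse 3 (7.25, below), Flt1 in mouse 4 (5.92, below) and the mean deviation of the Kupffer cell and macrophage markers in mouse 4 (-0.52, below). In filtered-air mice it held for Gata4 in mouse 4 (7.26, below). Bmp2, Vwf and Ramp2 are near background.

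The negative-control probe sets, which are tested as genes in no comparison and serve only as background and as a covariate, had array medians averaging 4.59 ± 0.15 in the combined group, above the filtered-air range of 4.36 to 4.43 (SD, n = 5).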

How the results depend on the processing

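Of 27 called marker differences 5 stayed past the threshold in all alternatives and with each mouse left out: F8 in the 3 comparisons of the combined group, Clec4g against filtered air and Stab2 against metformin. Of all results and alternatives computed, 0 changed direction among the called ones. No paired analysis was possible because the labels give mice of different groups no shared numbers. The causes of the changes below were not tested. The negative-control medians of filtered-air mice overlap neither those of metformin nor of combined mice. Fits with that covariate therefore cannot fully separate group from background in those comparisons.

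With the negative-control covariate, 148 genes, 0 markers and a sinusoidal median of -0.081 were found for metformin against filtered air, and 1063 genes, 2 markers (both sinusoidal) and -0.25 for the combined group against filtered air. The combined group had 79 genes, 1 marker and -0.50 against PM2.5, and 1011 genes and -0.34 against metformin, and the interaction had 44 genes. Without combined mice 2 and 4, the combined group had 2568 genes and -0.38 against filtered air, 208 genes, 4 markers and -0.59 against PM2.5, and 508 genes, 2 markers and -0.21 against metformin. The same choice gave 943 genes for PM2.5 against filtered air and 10 genes with a sinusoidal median of -0.48 for the interaction. Kdr was lost (0 markers) with no filter, with median centring and with the covariate. Fits of the compared arrays alone called 523 genes in the combined group against PM2.5 and 1038 against metformin. The filter at the 60th percentile moved the sinusoidal median against PM2.5 to -1.40, over fewer genes, and general vascular markers called against filtered air were 3 there and 2 under quantile normalization, median centring and the compared arrays alone.

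With 1 mouse left out at a time, genes called were 212 to 772 for PM2.5 and 159 to 489 for metformin, with 0 to 1 and 0 to 2 markers. In the combined group the sinusoidal median against filtered air was -1.27 to -0.72, genes called were 642 to 2145 against PM2.5 and 1146 to 2414 against metformin, general vascular markers called were 1 to 3 in both, and 5 to 11 markers were called against metformin. The interaction called 7 to 292 genes and 0 to 6 markers. The highest gene counts and the lowest median came without combined mouse 5. Signals near the negative-control median limit what could be seen for Stab1, Bmp2, Vwf, Robo4 and Ramp2.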
